A study of Mus musculus with 22 samples.

Results

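The SLC25 genes encode the mitochondrial carriers, and 47 of them were found among the 29367 genes of the count table. They were chosen as the protein-coding genes whose symbol starts with Slc25a. Slc25a5-ps, a pseudogene with at most 3 counts in any library, was left out by that rule. The mRNA measured was bound to HA-tagged ribosomes of astrocytes from the optic nerve head (ONH, the unmyelinated start of the nerve) and from the optic nerve proper (ONP, the adjoining myelinated stretch, cut to the same length). Mice carried both copies of the tagged ribosomal allele Rpl22 HA/HA together with a GFAP-Cre transgene, and were bred from strain B6J.129(Cg)-Rpl22tm1.1Psam/SjJ and the GFAP-Cre line 73.12Mvs/J on a C57Bl/6 background. They were 3 to 4 months old, and all of them had received microbeads into an eye, which raises intraocular pressure (IOP). Tissue was taken 7 or 30 days after the injection, giving 7 libraries per region at 30 days and 4 per region at 7 days, each from the pooled tissue of 4 mice, 2 of them male. Libraries of uninjured mice were not analysed here. The Cre was driven constitutively by a mouse GFAP promoter, so the tag marks cells in which that promoter was active, whatever their later state. A difference in such bulk mRNA can come from fewer cells of a type or from less mRNA per cell, and these cannot be told apart.

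Mitochondrial carriers are small proteins of the inner mitochondrial membrane, built from a repeated module that crosses the membrane as a ring of helices. Most exchange a substrate of the matrix for a substrate of the cytosol, so they decide which nucleotides, phosphate, organic acids, amino acids and cofactors pass between both spaces. In astrocytes they serve the export of ATP, the shuttling of reducing equivalents and the entry of glutamate for oxidation.

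Levels are given in CPM, the count of a gene relative to the total of its library, scaled by TMM over all 22 libraries. Total counts per library lay between 16292489 and 33307092, and 3 counts, the detection floor used here, were worth 0.0901 to 0.184 CPM. The 10 astrocyte markers summed to between 13949 and 33885 CPM per library, and the 6 muscle markers to at most 51.8 CPM, with Myh2 below 1 CPM in every library. The 6 erythroid markers reached 2571 CPM in an ONH library at 30 days, with Slc4a1 below 1 CPM in every library. The 7 oligodendrocyte markers were abundant as well, and differed between the regions and, in the ONP, between the days. They summed to 18575 to 35889 CPM in the ONH and 79822 to 107422 CPM in the ONP at 7 days, and to 13211 to 39769 CPM in the ONH and 25230 to 83376 CPM in the ONP at 30 days. Of the 10 astrocyte markers, 1 was higher and 4 were lower in the ONH at 30 days, beside 21.8% higher and 20.0% lower of all genes. Photoreceptor markers (5 genes) reached 5262 CPM in a 7 day ONH library, against at most 118 CPM in the ONP, and pigment cell markers (5 genes) lay between 66.6 and 837 CPM in the ONH against at most 8.18 CPM in the ONP. The part of these other cells in the region differences of carriers given below was not tested.

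Between carriers, levels were compared as CPM per kilobase of exon. The length was that of all annotated exons of a gene, so the order of carriers depends on it. The summed level of the 47 genes was 3218 ± 356 CPM (SD, n = 4) in the ONH and 3082 ± 128 CPM (n = 4) in the ONP at 7 days, and 3230 ± 108 CPM (n = 7) in the ONH and 3511 ± 269 CPM (n = 7) in the ONP at 30 days. Per kilobase, a few carriers made up most of the family's level. Slc25a4, which exchanges ADP for ATP, was at the top with a mean over the 4 groups of 443 CPM per kb, followed by its relative Slc25a5 with 191 CPM per kb and by the citrate carrier Slc25a1 with 116 CPM per kb. These 3 genes held 58.3% to 61.8% of the family's level per kilobase in the group means. The oxoglutarate carrier Slc25a11 and the glutathione carrier Slc25a39 came next with 64.6 and 63.8 CPM per kb. Slc25a11 was the higher one in the ONP at 7 days (58.0 against 47.2 CPM per kb). Slc25a39 was the higher one in the ONH at 30 days (73.4 against 65.8 CPM per kb). They were nearly equal in the ONH at 7 days (65.9 and 66.7 CPM per kb) and in the ONP at 30 days (68.5 and 67.8 CPM per kb). The glutamate carrier Slc25a18, the phosphate carrier Slc25a3 and the pyrimidine nucleotide carrier Slc25a33 followed, with 49.3, 48.1 and 45.7 CPM per kb. Without the division by length, Slc25a3 had a mean of 294 CPM in the ONH at 30 days, against 252 CPM for Slc25a5. In the ONP at 30 days it had 283 CPM, against 387 CPM for Slc25a5.

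**Figure D1:**
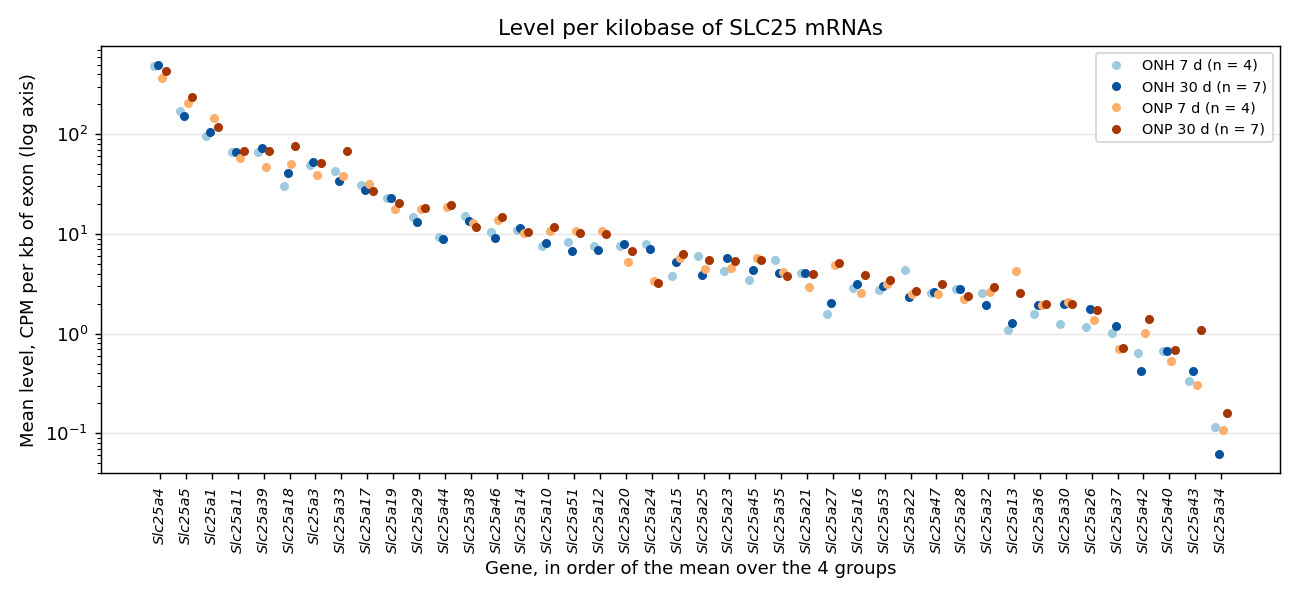
Mean level of the SLC25 mRNAs in CPM per kilobase of exon on a log axis, for each of the 4 groups, in order of the mean over groups; the 5 genes with a mean below 0.1 CPM per kb are not drawn. Slc25a4 stands at 443 CPM per kb and Slc25a34 at 0.112 CPM per kb.

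At the low end stood carriers known mainly from other tissues. Slc25a41 and Slc25a54 never exceeded 3 counts in a library. Slc25a2 (an ornithine carrier), Slc25a31 (the ADP/ATP carrier of the testis) and Slc25a48 exceeded 3 counts in 1, 4 and 6 of the 22 libraries, with highest values of 0.354, 1.31 and 0.990 CPM. These 5 genes passed the filter on low counts in no comparison. Slc25a34 passed it only for the interaction of region and day, and Slc25a43 in all but the 7 day comparison. The tests below therefore concern 40 to 42 carriers, and for the others no change was detectable at this depth.

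The first question was how carriers differed between the ONH and the ONP at 30 days. In this comparison 17 of 41 carriers passed the test, which was edgeR's quasi-likelihood test with Benjamini-Hochberg adjustment over all genes. That is 41.5% of those tested, beside 41.8% of all 15133 genes. Of these, 2 were higher in the ONH (21.8% of all genes were) and 15 were lower (20.0% of all genes were). The median log2FC of the carriers was -0.15, against -0.01 over all genes. In 9 carriers the libraries of the ONH and ONP did not overlap, beside 16.5% of all genes. Once gene length and GC content were corrected for, 5 carriers were higher and 14 lower.

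**Figure D2:**
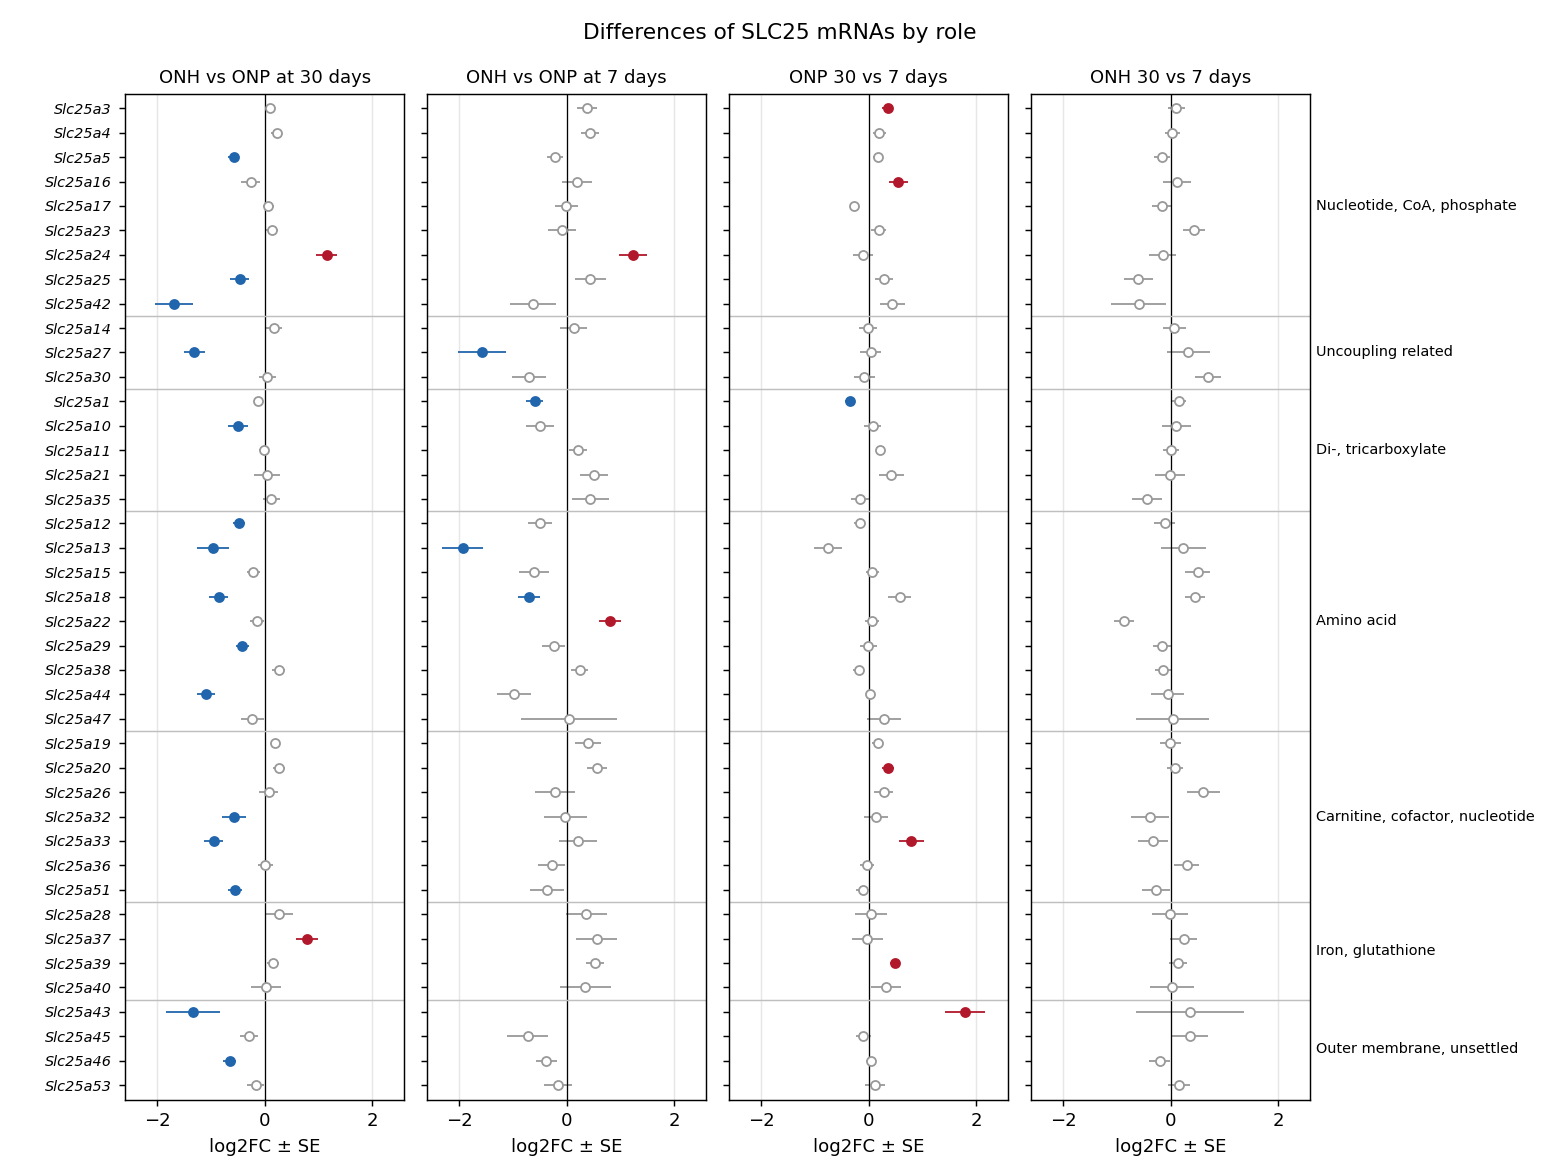
Log2 fold change (log2FC ± SE, x axis) of each tested carrier in 4 comparisons, grouped by role; red and blue filled points passed edgeR's test at an adjusted p under 0.05 (higher or lower in the first named group), open grey points did not. At 30 days 15 of 17 called carriers lie on the left, lower in the ONH, and in the ONH 30 vs 7 day panel no point is filled.

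Amino acid carriers had the largest number of calls among the roles: 5 of 9 tested were lower in the ONH at 30 days and none was higher. Of all genes, 20.0% were lower and 21.8% were higher. The median log2FC of the amino acid carriers was -0.42, against -0.01 over all genes. Slc25a44, which carries branched-chain amino acids, had a narrow range in the ONP, from 66.1 CPM over a median of 70.2 CPM to 74.6 CPM, while the ONH ranged from 15.4 over 35.4 to 40.9 CPM. Every ONH library lay below every ONP library. The log2FC was -1.09 ± 0.17 (SE, n = 7 per region; edgeR adjusted p = 0.000119).

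Slc25a44 lies on chromosome 3 at chr3:88410498-88425139, minus strand (GRCm38), and the reads were counted over all of its exons.

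The mitochondrial glutamate carriers are encoded by Slc25a18 and Slc25a22, of which Slc25a18 is the form known from astrocytes. Slc25a18 lies at chr6:120773578-120794336, plus strand, and Slc25a22 at chr7:141429744-141437892, minus strand. Slc25a18 ranged from 58.9 over 78.8 to 102 CPM in the ONH and from 72.4 over 157 to 182 CPM in the ONP at 30 days. Only 1 ONP library, that of replicate 5, fell within the ONH range. The log2FC was -0.86 ± 0.18 (edgeR adjusted p = 0.00149).

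The aspartate/glutamate carriers Slc25a12 and Slc25a13 are steps of the malate-aspartate shuttle, which brings reducing equivalents into the matrix. Slc25a12 was lower in the ONH with a log2FC of -0.47 ± 0.11 (edgeR adjusted p = 0.00307), with 38.0 to 58.0 CPM in the ONH and 58.7 to 82.1 CPM in the ONP. Slc25a13, the less abundant relative, went from 2.32 over 4.36 to 9.51 CPM in the ONH and from 5.49 over 9.64 to 15.6 CPM in the ONP (log2FC -0.96 ± 0.30, edgeR adjusted p = 0.0171). The ranges of Slc25a13 overlapped and those of Slc25a12 did not. Slc25a29, a carrier of basic amino acids, was lower in the ONH by a smaller amount (log2FC -0.42 ± 0.12, edgeR adjusted p = 0.0141). Slc25a15, Slc25a22, Slc25a38 and Slc25a47 did not pass.

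Of the carriers of adenine nucleotides, coenzyme A and phosphate, 1 of 9 was higher in the ONH at 30 days and 3 were lower. Of all genes, 21.8% were higher and 20.0% were lower. Slc25a24 and Slc25a25 are both calcium-regulated exchangers of ATP-Mg for phosphate, and they went in opposite directions. Slc25a24 held 17.7 over 21.8 to 39.6 CPM in the ONH and 7.43 over 11.3 to 15 CPM in the ONP, without overlap (log2FC 1.16 ± 0.20, edgeR adjusted p = 0.000286). Slc25a25 held 16.8 over 29.5 to 41.9 CPM in the ONH and 32.9 over 44.1 to 52.0 CPM in the ONP (log2FC -0.46 ± 0.18, edgeR adjusted p = 0.0486). The ranges of Slc25a25 overlapped, and its difference lay close to the threshold.

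The promoters of this pair are shown because the mRNAs of these relatives moved apart between the regions, and that of Slc25a18 because it was lower in the ONH on both days. Each stretch of 300 bases spans a RefSeq start (GRCm38.p6) and lies mostly before it, 5′ to 3′ on the strand of the gene, in lower case with motif matches in capitals. Slc25a24 is on chromosome 3, plus strand, at chr3:109122899-109123198, and Slc25a18 on chromosome 6, plus strand, at chr6:120773518-120773817. Slc25a25 is on chromosome 2, minus strand, and has 3 such starts, of which the one at chr2:32424017-32424316 is shown since it alone holds a match. Which start was used in these cells was not measured.
Slc25a24: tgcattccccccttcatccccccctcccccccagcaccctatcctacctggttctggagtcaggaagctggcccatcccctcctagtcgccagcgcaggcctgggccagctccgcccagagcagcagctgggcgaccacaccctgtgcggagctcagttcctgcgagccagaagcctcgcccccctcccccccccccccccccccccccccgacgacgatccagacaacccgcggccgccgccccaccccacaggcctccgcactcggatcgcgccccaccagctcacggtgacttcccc
Slc25a25: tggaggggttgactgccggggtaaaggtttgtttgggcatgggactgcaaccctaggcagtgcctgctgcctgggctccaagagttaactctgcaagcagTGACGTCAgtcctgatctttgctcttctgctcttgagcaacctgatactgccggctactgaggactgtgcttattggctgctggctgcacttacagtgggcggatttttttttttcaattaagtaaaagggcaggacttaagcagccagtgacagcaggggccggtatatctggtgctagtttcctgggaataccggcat
Slc25a18: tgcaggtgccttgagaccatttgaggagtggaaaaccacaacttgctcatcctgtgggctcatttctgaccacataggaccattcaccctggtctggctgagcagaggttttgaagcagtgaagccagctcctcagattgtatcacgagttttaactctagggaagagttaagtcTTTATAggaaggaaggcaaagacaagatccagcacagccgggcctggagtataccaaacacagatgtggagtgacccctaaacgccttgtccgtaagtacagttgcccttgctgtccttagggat
The capitals in Slc25a25 are the cAMP response element TGACGTCA, which begins 150 bases before the start, and those in Slc25a18 are TATAAA read on the opposite strand, beginning 75 bases before the start. Of 47 carriers 36 had an entry, with 46 promoters in all. On either strand, TGACGTCA was in 2 of 46 promoters (Slc25a25 and Slc25a36; 4.35%) and in 1.79% of all 32851 promoters of that length. TATAAA was in 2 of 46 (Slc25a18 and Slc25a21) and in 13.6% of all, and TCAAGGTCA, the element of the oestrogen-related receptors, was in 0 of 46 and in 0.423% of all. The Slc25a24 window held 72.3% G and C, against 52.3% in the window of Slc25a25 and 49.3% in that of Slc25a18.

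The ADP/ATP carriers also differed from each other. Slc25a5 was lower in the ONH at 30 days, with 183 over 249 to 316 CPM against 354 over 383 to 424 CPM in the ONP (log2FC -0.58 ± 0.11, edgeR adjusted p = 0.000648). No libraries of the regions overlapped. Slc25a4 did not pass, with 1059 to 1339 CPM in the ONH and 837 to 1165 CPM in the ONP. Slc25a42, which brings coenzyme A into the matrix, had the largest difference among the carriers that were lower, from 0.430 over 3.03 to 3.98 CPM in the ONH to 6.95 over 8.08 to 10.1 CPM in the ONP (log2FC -1.69 ± 0.35, edgeR adjusted p = 0.00128). The phosphate carrier Slc25a3 and the peroxisomal carrier Slc25a17 did not pass.

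Among carriers related to uncoupling proteins, 1 of 3 was lower in the ONH at 30 days, beside 20.0% of all genes. Slc25a27, also known as UCP4 and found mostly in brain, ranged from 5.79 over 7.43 to 10.8 CPM in the ONH and from 14.5 over 19.2 to 28.1 CPM in the ONP (log2FC -1.30 ± 0.20, edgeR adjusted p = 0.00011). Slc25a14 and Slc25a30 had log2FC values of 0.18 and 0.05 and did not pass. Of the di- and tricarboxylate carriers, only Slc25a10, the dicarboxylate carrier, passed among the 5 tested (log2FC -0.49 ± 0.18, edgeR adjusted p = 0.0429). Of all genes, 41.8% passed.

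Carriers of vitamins, cofactors and nucleotides were lower in the ONH in 3 of 7 cases and higher in none. Of all genes, 20.0% were lower and 21.8% were higher. Slc25a33 ranged from 47.8 over 62.2 to 80.7 CPM in the ONH and from 91.5 over 112 to 193 CPM in the ONP (log2FC -0.95 ± 0.18, edgeR adjusted p = 0.000651). The regions did not overlap for this carrier of pyrimidine nucleotides. Slc25a51, which imports NAD, had a log2FC of -0.55 ± 0.13 (edgeR adjusted p = 0.00326). The folate and flavin carrier Slc25a32 had a log2FC of -0.57 ± 0.22 (edgeR adjusted p = 0.049), which did not pass when the replicate was kept as a block (adjusted p = 0.0881), the only carrier called by 1 of these fits and not by the other.

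Of the iron and glutathione carriers, 1 of 4 differed at 30 days, beside 41.8% of all genes. Slc25a37 (mitoferrin 1), an iron importer of developing red cells, was higher in the ONH, with 5.38 over 7.28 to 9.77 CPM against 2.67 over 4.88 to 5.35 CPM in the ONP (log2FC 0.79 ± 0.21, edgeR adjusted p = 0.00601). The regions did not overlap, but the lowest ONH and the highest ONP library nearly met. The erythroid markers, 6 genes, summed to 49.2 to 2571 CPM in these ONH libraries and to 38.5 to 414 CPM in the ONP, with Slc4a1 below 1 CPM throughout, and their part in this result was not tested. The relative of Slc25a37, Slc25a28 (mitoferrin 2) did not pass (log2FC 0.28). In the remaining group, Slc25a46, a protein of the outer mitochondrial membrane that takes part in fission and fusion, was lower in the ONH (38.7 over 49.8 to 60.6 CPM against 69.9 over 83.0 to 90.9 CPM; log2FC -0.65 ± 0.13, edgeR adjusted p = 0.000835). Slc25a43, whose substrate is not settled, was near 1 CPM or 2 CPM and passed narrowly (log2FC -1.33 ± 0.51, edgeR adjusted p = 0.0454). Slc25a10, Slc25a25, Slc25a32 and Slc25a43, all close to the threshold, were each lost in 9 of 14 cases when a library was left out, and the other 13 in none. Slc25a25, Slc25a32 and Slc25a43 were also lost with all 4 groups in 1 fit. Slc25a25 and Slc25a32 were lost with the length and GC correction, and Slc25a32 and Slc25a43 with no filter.

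**Figure D3:**
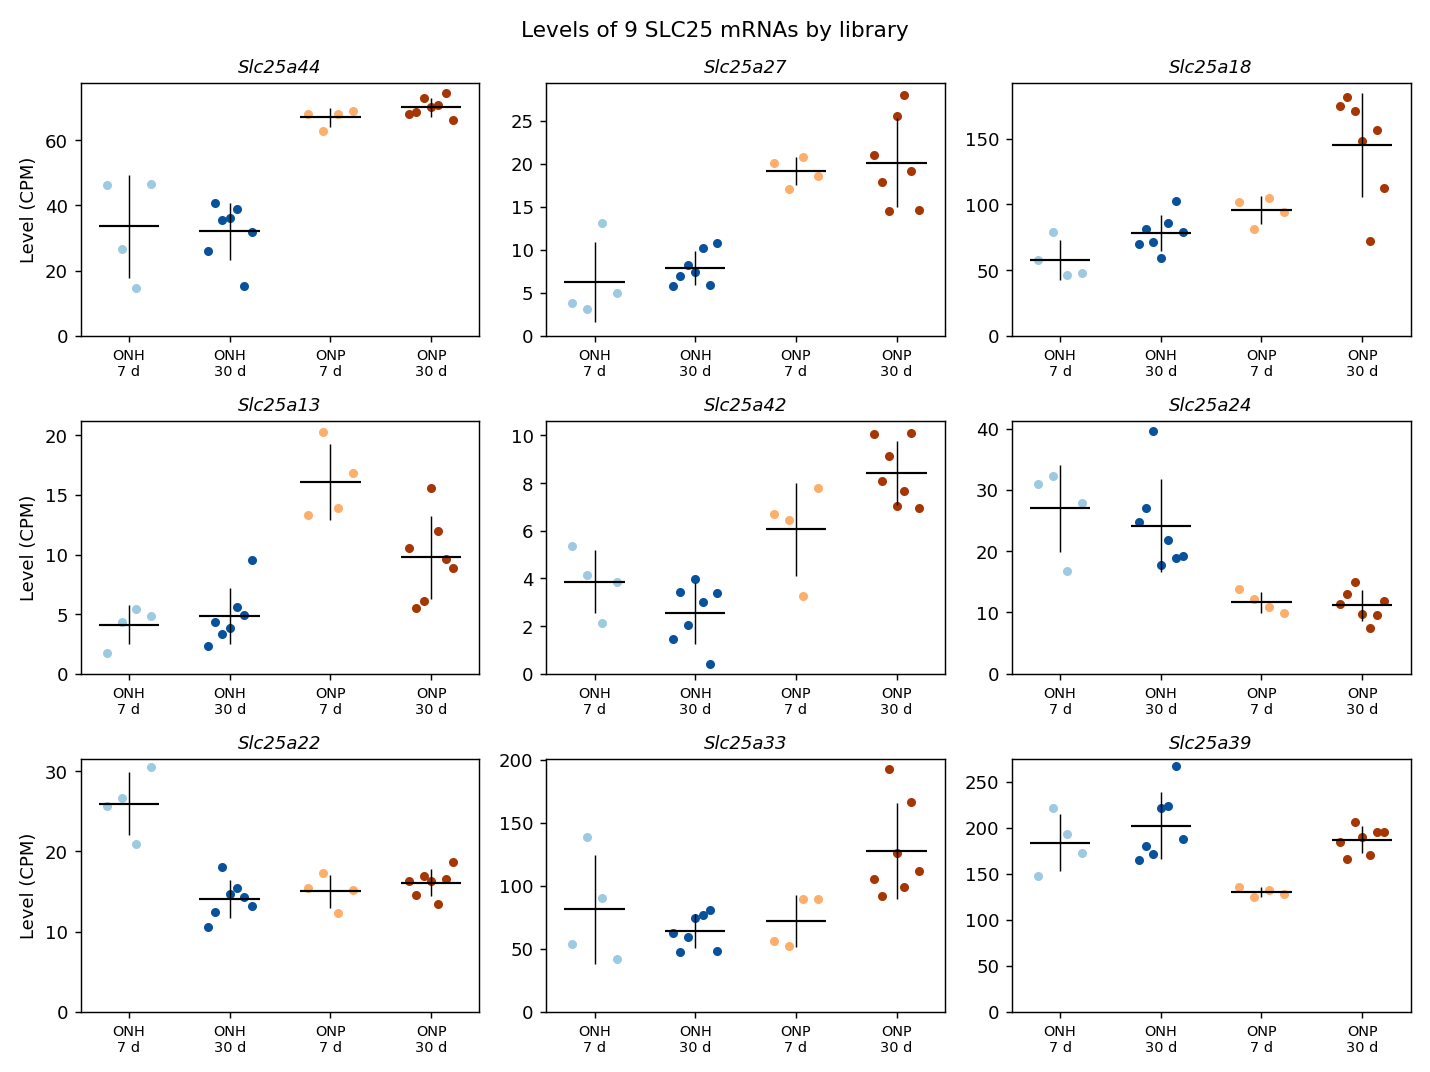
Level in CPM of 9 carriers in each library (points), with the mean (line) and SD (bar) of the 4 groups; every y axis starts at 0. For Slc25a44 the ONH libraries lie between 14.6 and 46.7 CPM and the ONP libraries between 62.8 and 74.6 CPM on both days, while Slc25a22 is highest in the ONH at 7 days.

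The same regions were compared at 7 days, with 4 libraries each, fitted without pairs. Here 6 of 40 carriers passed (15%, beside 13.2% of all 14752 genes), 2 of them higher in the ONH (6.34% of all genes were) and 4 lower (6.81% of all genes were). The median log2FC was -0.01 for the carriers and 0.07 for all genes. Scaled by library size alone, which moved the median of all genes to 0.18, 5 were higher and 2 lower, and corrected for length and GC content 3 were higher and 3 lower. Libraries of the regions did not overlap for 12 carriers, beside 21.7% of all genes.

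Slc25a24 was again higher in the ONH. Its libraries held 31.0, 32.3, 16.7 and 27.9 CPM in the ONH and 13.8, 12.1, 10.8 and 9.86 CPM in the ONP (log2FC 1.23 ± 0.26, edgeR adjusted p = 0.0101). The largest difference was that of Slc25a13, with 1.75, 4.35, 5.47 and 4.87 CPM in the ONH and 13.3, 20.3, 13.9 and 16.8 CPM in the ONP (log2FC -1.93 ± 0.38, edgeR adjusted p = 0.00771). For both genes the regions were fully separate, and both calls held when any single library was left out.

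Slc25a27 had 3.82, 3.07, 13.1 and 4.99 CPM in the ONH and 20.1, 17.1, 20.8 and 18.6 CPM in the ONP at 7 days (log2FC -1.58 ± 0.45, edgeR adjusted p = 0.0423). A single ONH library stood well above the other 3 but still below the ONP. Slc25a18 had 57.4, 79.1, 46.1 and 47.6 CPM in the ONH and 102, 80.9, 105 and 94 CPM in the ONP (log2FC -0.70 ± 0.20, edgeR adjusted p = 0.0427). The citrate carrier Slc25a1, which supplies the cytosol with citrate for lipid synthesis, had 168, 233, 218 and 204 CPM in the ONH and 305, 306, 291 and 368 CPM in the ONP (log2FC -0.60 ± 0.16, edgeR adjusted p = 0.0312). It did not pass at 30 days, where its ranges were 203 to 266 CPM and 231 to 279 CPM.

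Slc25a22, the second glutamate carrier, was higher in the ONH at 7 days, with 25.6, 26.7, 20.9 and 30.5 CPM against 15.5, 17.3, 12.3 and 15.2 CPM in the ONP (log2FC 0.81 ± 0.21, edgeR adjusted p = 0.0304). Thus Slc25a22 and Slc25a18 differed between the regions in opposite directions at this time. Leaving out a single library ended the calls of Slc25a1, Slc25a18, Slc25a22 and Slc25a27 in 5, 7, 7 and 7 of 8 cases. The calls of Slc25a18 and Slc25a22 were also lost with no filter. Those of Slc25a18 and Slc25a27 were lost with library size only, and that of Slc25a27 with the length and GC correction. Without any one of the 4 ONP libraries, Slc25a13 and Slc25a24 were the 2 calls left. Slc25a44 had 46.3, 26.7, 14.6 and 46.7 CPM in the ONH and 68.0, 62.8, 68.2 and 69.0 CPM in the ONP and did not pass (log2FC -0.98 ± 0.31, edgeR adjusted p = 0.0641), although its libraries did not overlap.

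The next comparison asked how carriers differed in the ONP between 30 and 7 days. Of 41 carriers 7 passed, which is 17.1% beside 17.0% of all 15491 genes. At 30 days 6 were higher (7.82% of all genes were) and 1 was lower (9.21% of all genes were), and the median log2FC was 0.07 against -0.01 over all genes. Scaled by library size alone, with the median of all genes at 0.11, 9 were higher and none lower, and corrected for length and GC content 3 were higher and 2 lower. Libraries of both days did not overlap for 7 carriers, beside 12.1% of all genes. Markers of other cells moved as well in this comparison. Lower at 30 days were 6 of 7 oligodendrocyte markers and 4 of 6 of endothelium and mural cells (103 to 113 CPM in sum at 7 days, 28.3 to 72.4 CPM at 30 days), and 1 marker each of neurons, photoreceptors, pigment cells and surface epithelium. Higher were 2 of 10 astrocyte markers and the 1 adipocyte marker tested. Their part in the carrier results was not tested.

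Slc25a39, which imports glutathione into mitochondria, rose from 136, 125, 132 and 128 CPM at 7 days to 166 over 190 to 207 CPM at 30 days (log2FC 0.49 ± 0.08, edgeR adjusted p = 0.00278). This was the carrier with the smallest p in the comparison, the days were fully separate, and the call held under each alternative run. Slc25a33 rose from 56.1, 52.0, 89.7 and 89.3 CPM to 91.5 over 112 to 193 CPM (log2FC 0.80 ± 0.23, edgeR adjusted p = 0.0352). Its 7 day libraries formed a lower and a higher pair, and the higher pair lay just under the lowest 30 day library.

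The phosphate carrier Slc25a3, which brings in the phosphate for ATP synthesis, rose from 209, 222, 201 and 231 CPM to 231 over 288 to 330 CPM (log2FC 0.36 ± 0.10, edgeR adjusted p = 0.0286). Slc25a20, the carnitine-acylcarnitine carrier of fatty acid oxidation, rose from 26.2, 23.3, 25.4 and 25.4 CPM to 27.8 over 34.7 to 38.9 CPM (log2FC 0.36 ± 0.12), and Slc25a16, linked to coenzyme A, from 9.54, 11.6, 18.2 and 9.86 CPM to 16.4 over 18.6 to 21.4 CPM (log2FC 0.55 ± 0.18). Both lay at the edge of the threshold, Slc25a16 with an edgeR adjusted p of 0.0498 and Slc25a20 with 0.05 after rounding. Each of these was lost in 9 of 11 cases when a library was left out, Slc25a3 in 6 and Slc25a33 in 5. The calls of Slc25a33, Slc25a20 and Slc25a16 were also lost with the length and GC correction, and those of Slc25a20 and Slc25a16 with no filter. All 4 of these calls were lost with all 4 groups in 1 fit.

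Slc25a43 had the largest fold, at a very low level: 0.734, 0.448, 0.580 and 0.422 CPM at 7 days and 1.19 over 1.90 to 2.74 CPM at 30 days (log2FC 1.80 ± 0.37, edgeR adjusted p = 0.0078). Slc25a1 was the carrier that fell, from 305, 306, 291 and 368 CPM to 231 over 255 to 279 CPM (log2FC -0.35 ± 0.09, edgeR adjusted p = 0.0201). No library of 1 day lay within the range of the other for either gene. Both calls were lost with all 4 groups in 1 fit. That of Slc25a1 was also lost with library size only, with no filter, and without library 6 at 7 days. The count of calls depended on single libraries. It went from 7 to 3 without ONP replicate 6 at 30 days or library 2 at 7 days (numbered as in the count table), and to 4 without replicate 1, 2 or 3 at 30 days or library 1 or 6 at 7 days. It was 1 when all 4 groups shared an estimate of the spread.

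In the ONH no carrier passed between 30 and 7 days (0 of 41, edgeR), and 0.0% of all 15668 genes did. At an unadjusted p under 0.05 there were 4 carriers, beside 13.9% of all genes, and DESeq2 called 2 carriers. The ONH libraries of the days did not overlap for 1 carrier, beside 2.25% of all genes. This was Slc25a22, with 25.6, 26.7, 20.9 and 30.5 CPM at 7 days and 10.6 over 14.2 to 18.0 CPM at 30 days (log2FC -0.87 ± 0.18, edgeR adjusted p = 0.18, unadjusted p = 0.000316). DESeq2 called it, as did the edgeR fit over all 4 groups. The others under 0.05 unadjusted were Slc25a30 with a log2FC of 0.69, Slc25a18 with 0.45 and Slc25a25 with -0.60, none of which passed the adjustment with edgeR, while DESeq2 called Slc25a30 (adjusted p = 0.0383). The spread in the ONH was wider, with an edgeR biological coefficient of variation of 48.2% against 35.0% in the ONP.

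Whether the change between days differed between regions was tested as an interaction, the ONP change minus the ONH change. Of 42 carriers 1 passed, beside 0.543% of all 16748 genes. It was Slc25a22, for which the changes differed by a log2FC of 0.94 ± 0.21 (edgeR adjusted p = 0.046). Its mean level went from 25.9 to 14.1 CPM in the ONH and from 15 to 16.1 CPM in the ONP. The call stood with the 30 day pairs as a block (limma-voom adjusted p = 0.0227), and was lost in 19 of 22 cases when a library was left out. At an unadjusted p under 0.05 there were 5 carriers beside 12.6% of all genes. The others were Slc25a33 with a difference of 1.13 ± 0.39, Slc25a25 with 0.89 ± 0.32, Slc25a1 with -0.51 ± 0.15 and Slc25a30 with -0.77 ± 0.29, all with edgeR adjusted p-values between 0.14 and 0.247.

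To set carriers with like substrates against each other, the log2 ratio of their counts was taken within each library for 8 pairs, which does not depend on library scaling. Groups were compared by exact two-sided permutation tests, adjusted over the 32 tests of 8 pairs and 4 comparisons. Counts of near relatives rest on how Salmon divided reads that fit both, so a ratio of very similar mRNAs such as Slc25a4 and Slc25a5 carries that uncertainty. Between the regions at 30 days 3 of 8 pairs passed, and at 7 days none did, where 4 pairs reached 0.0286, the smallest p that 4 against 4 libraries allow.

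Slc25a4 over Slc25a5 had a mean log2 ratio of 2.21 ± 0.33 (SD, n = 7) in the ONH and 1.38 ± 0.20 (n = 7) in the ONP at 30 days, a difference of 0.83 (exact p = 0.000583, adjusted p = 0.00932). Every ONH library had the higher ratio, and this was also so at 7 days, with means of 2.00 and 1.35 (exact p = 0.0286, adjusted p = 0.0831). Slc25a24 over Slc25a25 differed most, with means of -0.34 ± 0.44 in the ONH and -1.98 ± 0.24 in the ONP at 30 days (exact p = 0.000583, adjusted p = 0.00932). By counts, Slc25a24 was on average the lower of both in either region. Divided by the length of all annotated exons (3431 and 7862 bases), the median ratio was 1.92 in the ONH and 0.548 in the ONP. The order of both in the ONH thus depends on this length, and which exons were used was not measured. The pyrimidine nucleotide carriers Slc25a33 and Slc25a36 had ratios of 1.79 ± 0.52 and 2.71 ± 0.43 (exact p = 0.00524, adjusted p = 0.0323). With a library left out, the difference of Slc25a33 over Slc25a36 was lost in 8 of 14 cases and the others in none. Tested within replicate numbers by an exact sign flip, each of these 3 differences had p = 0.0156, the smallest that 7 pairs allow, and an adjusted p of 0.0714.

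Between days, the glutamate carriers shifted in the ONH. Slc25a22 over Slc25a18 went from a mean log2 ratio of -1.13 ± 0.38 at 7 days to -2.47 ± 0.35 at 30 days, without overlap (exact p = 0.00606, adjusted p = 0.0323). In the ONP the means were -2.67 and -3.12 and the difference did not pass (exact p = 0.121, adjusted p = 0.259). Per kilobase, Slc25a22 was at a median of 0.144 of Slc25a18 in the ONH at 7 days and 0.0532 at 30 days. The ornithine carrier Slc25a15 over Slc25a29 rose in the ONH from -0.95 ± 0.37 to -0.22 ± 0.18 (exact p = 0.00606, adjusted p = 0.0323), and in the ONP Slc25a33 over Slc25a36 rose from 1.90 ± 0.23 to 2.71 ± 0.43 with the same p-values. All 3 of these shifts were without overlap. With a library left out, both ONH shifts were lost in 11 of 11 cases and the ONP shift in 8 of 11. A library fewer also raises the smallest p that the permutation test can reach. These losses therefore do not by themselves show dependence on 1 library. The differences stayed between -1.49 and -1.18 for Slc25a22 over Slc25a18 and between 0.551 and 0.838 for Slc25a15 over Slc25a29. That of Slc25a33 over Slc25a36 in the ONP stayed between 0.709 and 0.886.

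**Figure D4:**
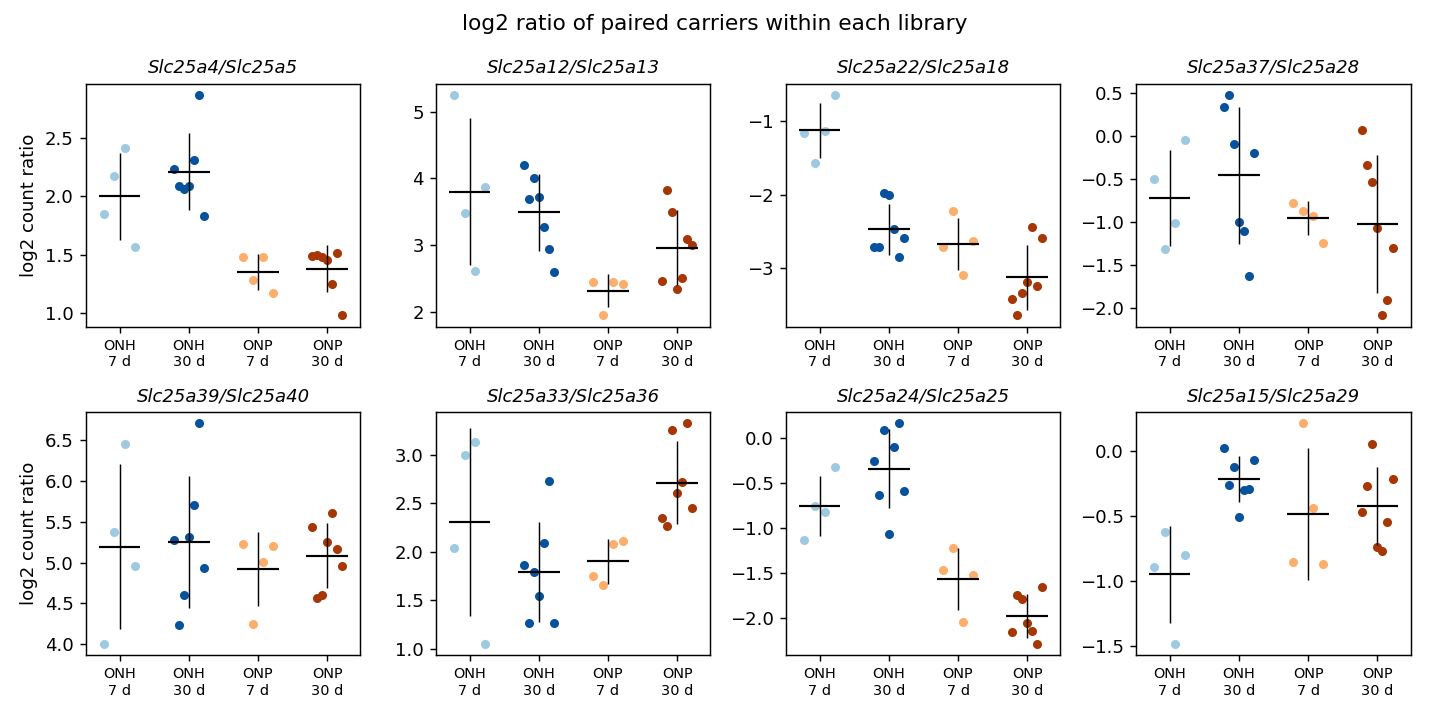
Log2 ratio of the counts of 2 related carriers within each library (points; count + 0.5), with the mean (line) and SD (bar) of the 4 groups. For Slc25a24 over Slc25a25 and for Slc25a4 over Slc25a5 the ONH libraries lie above the ONP libraries on both days, and for Slc25a22 over Slc25a18 the ONH at 7 days lies above the other 3 groups.

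Slc25a39 exceeded Slc25a40, the other glutathione carrier, by a median of 105 to 118 times per kilobase in the 4 groups. Before division by length, the mean log2 count ratio was 4.92 to 5.25, with no difference past the test. Slc25a37 over Slc25a28 and Slc25a12 over Slc25a13 did not pass in any comparison. For Slc25a12 over Slc25a13 the regions did not overlap at 7 days, with means of 3.80 ± 1.10 in the ONH and 2.32 ± 0.25 in the ONP (n = 4 each, exact p = 0.0286, adjusted p = 0.0831).

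Genes that work with the carriers were taken from lists of other families. Their calls were not examined under other settings or with a library left out, as those of the carriers were. Carriers reach the inner membrane through outer membrane receptors and the TIM22 complex, and of 10 such import genes 6 were higher and 2 lower in the ONH at 30 days, beside 21.8% higher and 20.0% lower of all genes. The largest differences were those of Timm10b (log2FC 1.06 ± 0.17, edgeR adjusted p = 0.000163), a small chaperone of the complex, and of Timm22, its channel (0.98 ± 0.16, edgeR adjusted p = 0.000165). Tomm22 was higher too (0.79 ± 0.12, edgeR adjusted p = 9.39e-05). Timm29 was among those that were lower (-0.43 ± 0.12, edgeR adjusted p = 0.0119). None of the 10 passed at 7 days, beside 13.2% of all genes, or between days in the ONH, where 0.0% of all genes did. In the ONP, Timm10 alone rose between the days (log2FC 0.54 ± 0.14, edgeR adjusted p = 0.0217), beside 7.82% of all genes.

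Other routes across the mitochondrial membranes are the pyruvate carrier (Mpc1, Mpc2), the porins and the calcium uniporter. Of 11 such genes 5 were higher and 2 lower in the ONH at 30 days, beside the same 21.8% and 20.0% of all genes. Mcub, which lowers uptake through the uniporter, had the largest difference, with 29.8 ± 2.82 CPM in the ONH and 4.32 ± 1.92 CPM in the ONP (SD, n = 7 each; log2FC 2.83 ± 0.23, edgeR adjusted p = 4.32e-07). It was also higher in the ONH at 7 days (1.35 ± 0.24, edgeR adjusted p = 0.00436), fell in the ONP between the days (-1.74 ± 0.30, edgeR adjusted p = 0.00333), and passed the interaction (-1.49 ± 0.35, edgeR adjusted p = 0.0496). Smdt1, which links the uniporter to its calcium sensors, was higher in the ONH on both days (log2FC 0.86 ± 0.16 and 0.87 ± 0.22, edgeR adjusted p = 0.000466 and 0.0237). Mpc2 was higher at 30 days (0.79 ± 0.16, edgeR adjusted p = 0.000949).

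Of 7 enzymes of the malate-aspartate and glycerol phosphate shuttles, 1 was higher and 2 were lower in the ONH at 30 days, a share near the 41.8% of all genes called. Mdh1, the malate dehydrogenase of the cytosol, was higher in the ONH on both days (log2FC 0.29 ± 0.10 and 0.56 ± 0.14, edgeR adjusted p = 0.0268 and 0.0258). Gpd1, of the glycerol phosphate shuttle, was lower in the ONH on both days (-0.47 ± 0.15 and -1.19 ± 0.35, edgeR adjusted p = 0.0176 and 0.0496) and fell in the ONP between the days (-1.14 ± 0.14, edgeR adjusted p = 0.000598). Of 9 genes for iron-sulphur clusters and haem, which use iron and glutathione brought in by carriers, 3 were higher and 2 lower in the ONH at 30 days, beside 41.8% of all genes called. Iscu, the scaffold of cluster assembly, was higher in the ONH on both days (0.47 ± 0.10 and 0.85 ± 0.15, edgeR adjusted p = 0.00215 and 0.00428) and rose in the ONP (0.44 ± 0.08, edgeR adjusted p = 0.00533). Cpox, an enzyme of haem synthesis, was lower in the ONH on both days (-1.34 ± 0.29 and -1.47 ± 0.30, edgeR adjusted p = 0.00196 and 0.00888). Of 4 relatives of the family under other symbols (Ucp2, Ucp3, Mtch1 and Mtch2), 3 were tested in each comparison of 2 groups. All 4 were tested for the interaction. None of those tested passed. Of all genes, 41.8% passed at 30 days, 13.2% at 7 days and 0.543% for the interaction. Between days 17.0% of all genes passed in the ONP and 0.0% in the ONH.

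In the genome, the 47 carriers lie on 19 chromosomes, and 4 pairs of them are close neighbours. In the closest, Slc25a29 and Slc25a47 on chromosome 12 start 162 bases apart and run in opposite directions (GRCm38). Slc25a29 was lower in the ONH at 30 days and Slc25a47 did not pass. Slc25a5 and Slc25a43, on the X chromosome in the same direction, are 18448 bases apart, and both were lower in the ONH at 30 days. The library kit does not keep the strand of an mRNA, so reads in exons shared with a gene on the opposite strand cannot be assigned with certainty. This concerned 31.3% of the exon bases of Slc25a35 (shared with Rangrf) and 14.9% of those of Slc25a33 (shared with Gm13068), and under 9% in the other carriers.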

How the data were processed

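RNA bound to HA-tagged ribosomes was sequenced from polyA-selected, unstranded libraries in 22 samples. Per the methods, the authors aligned reads with STAR 2.6.1d to mm10 within bcbio, estimated transcripts with Salmon 0.14.2 on Ensembl 94, and summed them to genes with tximport (R 4.1.0, DESeq2 1.34.0). The values used here are the estimated counts that the authors deposited, an estimated count being the Salmon value summed per gene and already rounded to a whole number. A table of variance-stabilized values was not used. The 30 day columns were matched to samples by name. The numbers of the 7 day columns are not those of the sample names, so these columns were matched to a group only.

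Counts were tested with edgeR 4.0.16 in R 4.3.3 (filterByExpr, TMM, quasi-likelihood test, Benjamini-Hochberg adjustment over all genes tested, threshold 0.05), with the libraries of both groups compared in the fit, and all 4 groups for the interaction. Log2FC is given with its SE, and "called" or "passed" means an adjusted p under 0.05. Levels per kilobase, positions and exon overlaps use GENCODE M21 (GRCm38), in which all 47 genes were found. Promoters come from RefSeq. Count ratios had 0.5 added to both counts. Scripts were tested on simulated data. Per the methods, ONH and ONP tissue came from the same mice, but that an equal replicate number marks the same pool is not stated. At 30 days the deviations of same-numbered libraries correlated with r of 0.0747 to 0.494 (median 0.253, against -0.09 between other numbers), and 3 of 7 numbers matched their own best, so the replicate block is given as an alternative.

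Alternatives were DESeq2 1.42.0, RLE size factors, library size only, no filter, at least 10 counts in every library, offsets for gene length and GC content, all 4 groups in 1 fit, the replicate block (edgeR, or limma 3.58.1 for the interaction), 1 added to counts for ratios, and leaving out each library. Library values are given for carriers passing a comparison (the 8 with the smallest p where more passed), for the 5 highest per kilobase and for the pairs. Genes of other families come from lists, at most 4 a list and comparison. Carriers, lists and markers were chosen with earlier results of these data known. P-values measure the spread between pools of 4 mice.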

Additional observations from a re-analysis of the deposited data

Results flagged for a closer look

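Among 136 groups of values examined, 4 had a library far from the others by Dixon's criterion, the gap to the nearest library over the range of the group, which by chance is passed by about 1 in 20 groups. Slc25a4 in the ONH at 30 days reached 1339 CPM in replicate 6, with the other 6 libraries between 1059 and 1164 CPM (ratio 0.625). Slc25a24 in the same group reached 39.6 CPM in replicate 3, with the others between 17.7 and 27.0 CPM (ratio 0.573). In the ONP at 7 days, library 2 was lowest for Slc25a44 with 62.8 CPM, the others being between 68.0 and 69.0 CPM (ratio 0.848). The same library was lowest for the log2 ratio of Slc25a12 over Slc25a13 with 1.95, the others being between 2.42 and 2.46 (ratio 0.924).

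The change of Slc25a22 from 7 to 30 days differed between the regions by a log2FC of 0.94 (edgeR interaction, Benjamini-Hochberg adjusted p = 0.046).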

How the results depend on the processing

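None of the 39 gene results or 6 pair results reversed its direction under an alternative, and 22 of the gene results also stayed on their side of the threshold throughout. Between 30 and 7 days in the ONH, the count of called carriers went from 0 to 2 with DESeq2 and to 1 with all 4 groups in a fit, and lay between 0 and 1 with a library left out (1 without ONH library 5 of 7 days). In the ONP it went from 7 to 4 with no filter and to 1 with all 4 groups, and lay between 3 and 9 with a library left out (9 without ONP replicate 5). At 7 days it went from 6 to 13 with all 4 groups, and lay between 2 and 6 with a library left out, at 2 without any one of the 4 ONP libraries. At 30 days it lay between 14 and 19 under all settings, the replicate block included (16), and between 13 and 16 with a library left out. The interaction went from 1 to 0 with no filter and lay between 0 and 1 with a library left out, at 1 only without ONH replicate 3, ONP replicate 5 or ONH library 5 of 7 days. The cause of these moves was not tested.

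Of the ratios, the 3 pairs that passed at 30 days became 0 when the replicate block was kept by sign flips, and lay between 2 and 4 with a library left out. The 2 pairs in the ONH became 0 without any one library, and the 1 in the ONP lay between 0 and 2. A library fewer also raises the smallest p of these tests. At 7 days the count stayed at 0, where a library fewer allows no p under 0.05. Among the tests of single genes, the replicate block changed no other call than that of Slc25a32. A paired fit of the regions at 7 days was not run: 3 column numbers occur in both regions, but the column numbers are not those of the sample names, so the libraries were matched to a group only. For the comparisons of days, no paired analysis was possible because different mice were used at each day.

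Over all genes, calls between days in the ONH went from 0 to 446 with DESeq2, 292 with all 4 groups, and 2 each with no filter and with the length and GC correction. In the ONP they went from 2638 to 1189 with all 4 groups, at 7 days from 1940 to 3211 with DESeq2 and 3785 with all 4 groups, and for the interaction from 91 to 410 with DESeq2, 51 with no filter and 161 with limma-voom. For the interaction, scaling by library size alone took the all-gene median log2FC from 0.01 to 0.16. Depth limits the 5 carriers that no comparison tested.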
